A study of Mus musculus with 9 samples.

Results

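The genes described here are 30 genes of cholesterol and fatty acid synthesis, taken as the rows of the raw count table whose symbol is on a list of enzymes, regulators and transport proteins of these pathways. All 30 were among the 15914 genes tested, out of 55418 symbols in the table. By role, 18 were sterol synthesis enzymes, 6 were regulators and transport genes, and 6 were fatty acid synthesis enzymes. The cells were 66cl4, a mouse mammary carcinoma line of the triple negative type, which lacks hormone receptors and Her2 amplification. SCR cells carried a scrambled short hairpin RNA, and shEya3_KD1 and shEya3_KD2 cells each carried a different hairpin named for Eya3, a transcriptional co-activator with phosphatase activity. All 3 groups were transduced, kept in puromycin and grown in high glucose medium with calf serum, so lipids from serum were present in every group. Each group had 3 libraries named as biological replicates, and the labels do not describe separate cultures or say whether a line was 1 clone, so p-values measure only how far these libraries vary, which may be technical.

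Cholesterol is built from acetyl-CoA through mevalonate, farnesyl diphosphate, squalene and lanosterol, and fatty acids are built from acetyl-CoA through malonyl-CoA. Both pathways are driven by the SREBP transcription factors, encoded by Srebf1 and Srebf2. Scap carries these factors from the endoplasmic reticulum to the Golgi, where they are cut and released, and the Insig proteins hold Scap back when sterols are plentiful. Textbook accounts assign the sterol genes mainly to the product of Srebf2 and the fatty acid genes mainly to a product of Srebf1, and Insig1 is itself a target of these factors.

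The promoters of 5 members are shown because these genes mark the extremes of the results that follow: Insig1 and Cyp51 rose most with shEya3_KD1, Dhcr7 and Fasn fell most, and Hmgcs1 holds a match to the sterol regulatory element core. The letters are from RefSeq on GRCm38.p6, 200 bases running 5′ to 3′ on the gene's strand. They end before any annotated exon, so bases next to the RefSeq start can be missing. For Cyp51 this leaves out a CCAAT 29 bases before the start. Dhcr7 has a further start whose window, not shown, holds CCAAT and GGGCGG matches. Capitals mark any match, on either strand, to the sterol regulatory element core TCACNCCAC, to CCAAT (the box bound by NF-Y) or to GGGCGG (the box bound by Sp1), and adjacent or overlapping matches run together.
Insig1 promoter (chr5:28071163-28071362, plus strand): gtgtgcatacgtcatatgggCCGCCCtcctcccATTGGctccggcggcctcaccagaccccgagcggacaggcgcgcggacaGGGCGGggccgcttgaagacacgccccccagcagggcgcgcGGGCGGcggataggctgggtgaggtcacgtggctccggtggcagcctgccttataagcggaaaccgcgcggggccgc
Cyp51 promoter (chr5:4104747-4104946, minus strand): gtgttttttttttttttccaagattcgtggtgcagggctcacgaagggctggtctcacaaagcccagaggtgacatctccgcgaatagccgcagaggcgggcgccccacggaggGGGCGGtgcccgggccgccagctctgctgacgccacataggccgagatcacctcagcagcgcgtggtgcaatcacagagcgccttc
Hmgcs1 promoter (chr13:119690151-119690350, plus strand): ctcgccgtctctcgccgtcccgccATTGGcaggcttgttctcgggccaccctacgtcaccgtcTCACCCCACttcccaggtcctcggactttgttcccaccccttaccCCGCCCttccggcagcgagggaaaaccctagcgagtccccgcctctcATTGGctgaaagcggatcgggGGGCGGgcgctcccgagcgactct
Dhcr7 promoter (chr7:143822945-143823144, plus strand): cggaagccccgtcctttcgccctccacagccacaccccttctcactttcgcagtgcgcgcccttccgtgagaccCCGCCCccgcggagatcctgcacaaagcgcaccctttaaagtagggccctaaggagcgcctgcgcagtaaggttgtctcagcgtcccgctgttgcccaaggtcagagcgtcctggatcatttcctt
Fasn promoter (chr11:120824548-120824747, minus strand): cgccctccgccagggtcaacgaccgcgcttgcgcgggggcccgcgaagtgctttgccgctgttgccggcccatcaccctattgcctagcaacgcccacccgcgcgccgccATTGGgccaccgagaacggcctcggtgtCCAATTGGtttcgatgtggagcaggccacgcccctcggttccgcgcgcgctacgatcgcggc

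Promoter windows from 250 bases before to 50 bases after a start were found for 24 of the 30 members, in 32 windows. None was found for Fdps, Fdft1, Sqle, Stard4, Scd1 and Scd2. CCAAT stood in 65.6% of these member windows, against 37.4% of all 32851 windows of the same length. GGGCGG stood in 75% of member windows and in 35.7% of all windows. The sterol regulatory element core stood in 1 member window (3.125%), that of Hmgcs1, 137 bases before the start, and in 1.24% of all windows. Only these letters of the element were searched, so a member without a match may hold another form of it. A match describes letters in the window and does not show that a factor bound there.

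Eya3 was at 72.9 ± 5.56 CPM (counts-per-million of the TMM-scaled library size, mean ± SD, n = 3) in SCR, 23.1 ± 1.71 in shEya3_KD1 and 37.5 ± 3.02 in shEya3_KD2. Library totals ran from 27758862 to 52691960 counts. The member genes together took 0.667% to 0.720% of counts in SCR, 0.634% to 0.722% in shEya3_KD1 and 0.816% to 0.913% in shEya3_KD2. Much of this sum was Scd2, which alone took 0.237% to 0.261% in SCR, 0.203% to 0.246% in shEya3_KD1 and 0.317% to 0.368% in shEya3_KD2. Among 7 epithelial markers the summed level was 658 to 697 CPM in SCR, 1223 to 1372 in shEya3_KD1 and 766 to 870 in shEya3_KD2, nearly all of it Krt8, while the junction genes that define epithelium were nearly absent: Epcam had no count in any library and Cdh1 had 5 to 22 counts per group. Among 7 adipocyte markers, which a lipid-storing cell would carry, the sum was 3.25 to 3.42 CPM in SCR, 6.11 to 7.24 in shEya3_KD1 and 5.46 to 6.69 in shEya3_KD2. Of these 7, 2 reached a mean of 1 CPM in SCR, 1 in shEya3_KD1 and 1 in shEya3_KD2. Cfd had no count, and Adipoq and Lep had at most 1 count per group, so the sum came from the other adipocyte markers. Summed markers of macrophages, fibroblasts and endothelial cells reached at most 13.3, 45.3 and 4.11 CPM in any library, and the part of these markers in the results was not tested.

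With the level divided by the length of the longest annotated transcript, Scd2 was the most abundant member in SCR at 453 ± 22.5 CPM per kb (mean ± SD, n = 3). Fasn at 112 ± 13.8 and Scd1 at 109 ± 4.38 CPM per kb came next and did not differ beyond their spread, and then came Acly at 67.5 ± 2.16, Dhcr7 at 63.1 ± 2.22 and Srebf2 at 59.3 ± 2.15 CPM per kb. The lowest were Fdps at 3.18 ± 0.0741, Pmvk at 2.27 ± 0.102 and Tm7sf2 at 0.537 ± 0.0759 CPM per kb. Exons of Fdps overlap Gm43738 and those of Tm7sf2 overlap Vps51, each on the same strand. Reads where they overlap cannot be told apart, and the part of this in these levels was not tested. The 4 most abundant members per length were thus all fatty acid enzymes.

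**Figure D1:**
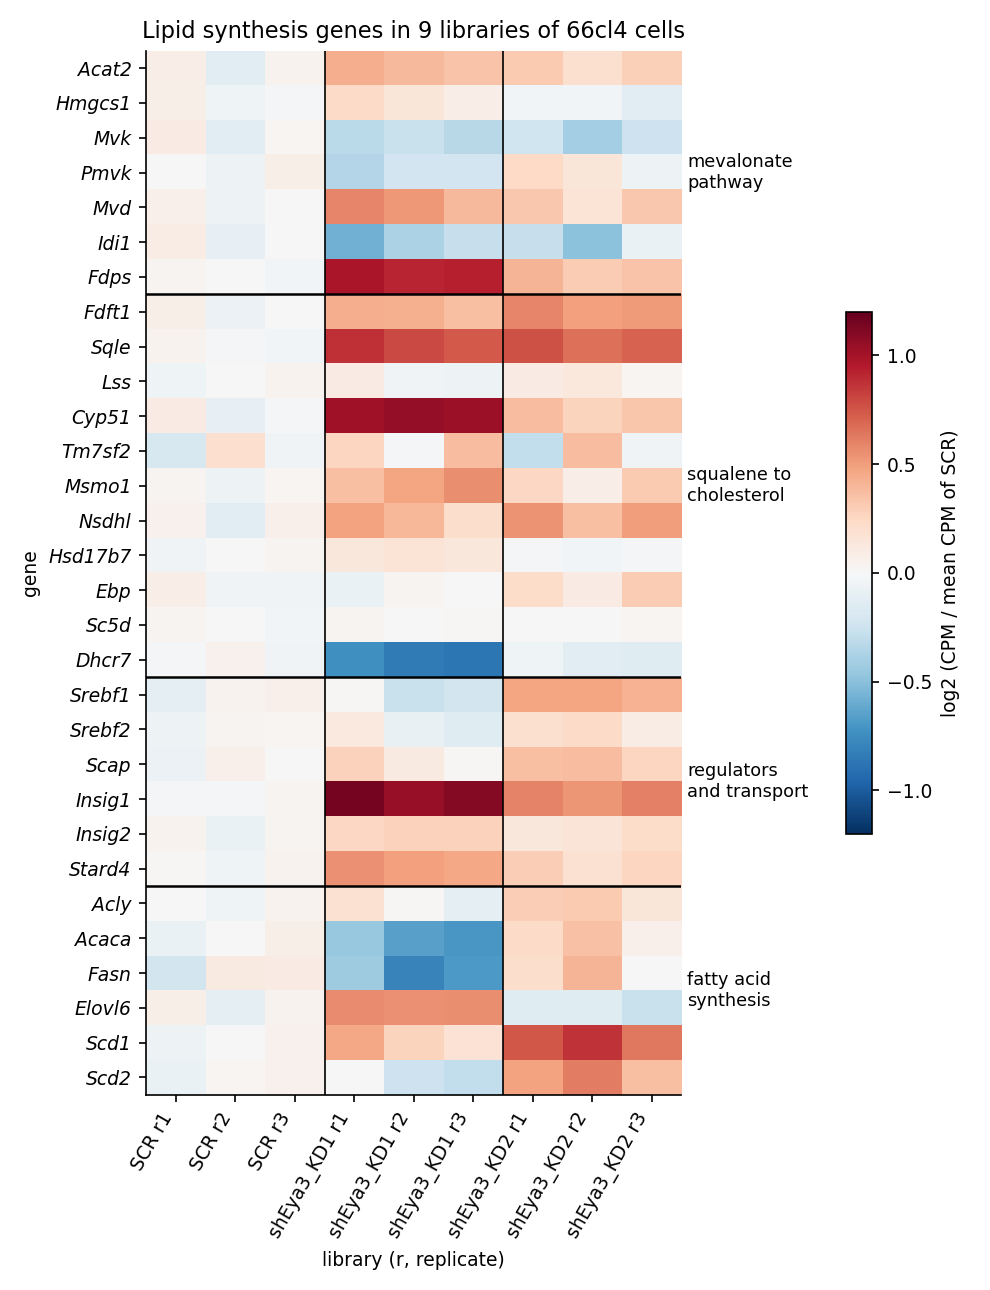
Level of each of the 30 genes in each of the 9 libraries, as the log2 ratio of its CPM to the mean CPM of the 3 SCR libraries (red above, blue below), with genes in rows by role and libraries in columns. Insig1, Cyp51, Fdps and Sqle are higher in all hairpin libraries than in SCR, and Dhcr7, Acaca and Fasn are lower in the shEya3_KD1 libraries.

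The comparison of shEya3_KD1 with SCR asked how these pathways stood in the cells with less Eya3. Of the 30 members 13 rose and 5 fell at an adjusted p of 0.05, where 24.1% of all genes tested rose and 26.2% fell (50.3% called in either direction). The median log2 fold change was 0.15 over the members and 0.014 over all genes. Sterol enzymes rose in 8 cases and fell in 3 of 18, regulators and transport genes rose in 3 of 6, and fatty acid enzymes rose in 2 and fell in 2 of 6. The comparison of shEya3_KD2 with SCR had 18 members that rose and 3 that fell, against 23% and 22.3% of all genes (45.3% in either direction), with a median of 0.22 over the members and -0.0044 over all genes. There 9 sterol enzymes rose and 2 fell, 5 regulators and transport genes rose, and 4 fatty acid enzymes rose and 1 fell. Both comparisons use the same SCR libraries, so they are not independent of each other.

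**Figure D2:**
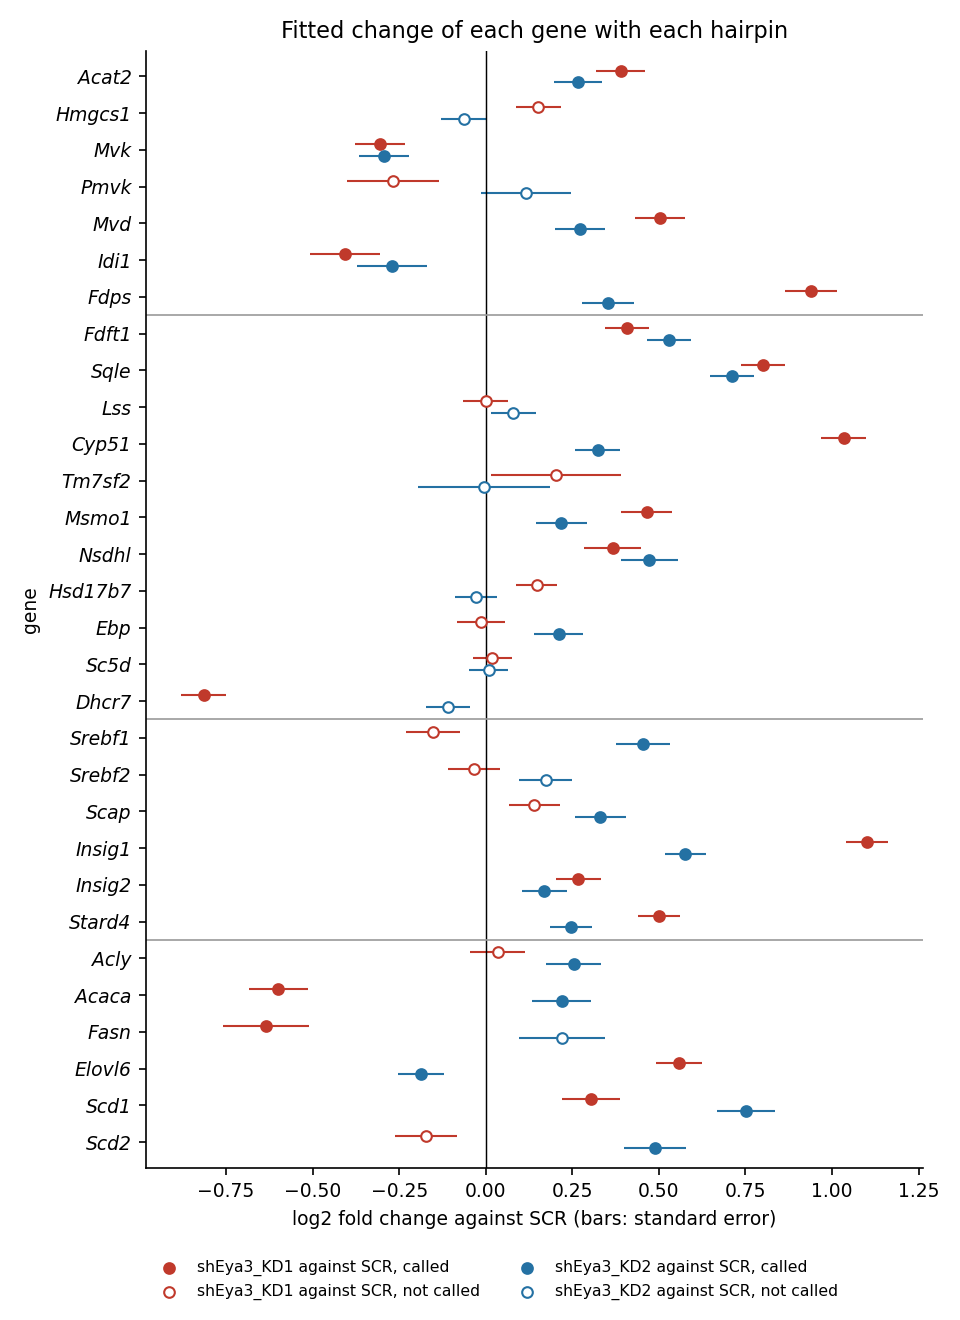
Log2 fold change (point) and standard error (bar) of each member against SCR in shEya3_KD1 and shEya3_KD2, grouped by role, with 3 libraries per group and filled points for genes that passed the test. Cyp51 and Insig1 reach 1.03 and 1.10 with shEya3_KD1, while Acaca and Fasn lie at -0.60 and -0.63.

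In the mevalonate pathway, 3 of 7 enzymes rose (42.9%) and 2 fell (28.6%) with each hairpin. Of all genes tested, 24.1% rose and 26.2% fell with shEya3_KD1, and 23% and 22.3% with shEya3_KD2. Fdps, which makes farnesyl diphosphate (mm10, chromosome 3, 89093588 to 89101959), stood at 9.62, 9.36 and 9.19 CPM in the SCR libraries, 18.5, 17.7 and 17.9 in shEya3_KD1 and 12.5, 11.6 and 11.9 in shEya3_KD2. The groups did not overlap, and shEya3_KD1 was highest. The part of the exon overlap with Gm43738 in these values was not tested. The log2 fold change was 0.94 ± 0.07 (SE) for shEya3_KD1 (1.92-fold, adjusted p = 5.41e-08, quasi-likelihood test of edgeR, Benjamini-Hochberg) and 0.35 ± 0.08 for shEya3_KD2 (adjusted p = 0.00146). Mvd, which forms isopentenyl diphosphate, rose by 0.50 ± 0.07 and 0.27 ± 0.07 on the log2 scale, and Acat2, which condenses acetyl-CoA at the pathway's entry, by 0.39 ± 0.07 and 0.27 ± 0.07. These 3 genes had higher values in every hairpin library than in any SCR library. How many of all genes tested separated in this way was not counted. Of all genes tested, 50.3% were called in either direction with shEya3_KD1 and 45.3% with shEya3_KD2.

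Other mevalonate enzymes went the other way. Mvk, mevalonate kinase, fell from 87.5 ± 6.86 CPM in SCR to 70.8 ± 1.73 in shEya3_KD1 and 71.3 ± 4.59 in shEya3_KD2, log2 fold changes of -0.31 ± 0.07 and -0.29 ± 0.07. Idi1, the isomerase that supplies dimethylallyl diphosphate, fell from 77.9 ± 5.03 CPM to 58.9 ± 6.04 in shEya3_KD1 and 64.5 ± 9.21 in shEya3_KD2 (-0.41 ± 0.10 and -0.27 ± 0.10). The shEya3_KD2 libraries of Idi1 overlapped SCR, and that call was lost without SCR replicate 1, SCR replicate 3, shEya3_KD1 replicate 2, shEya3_KD2 replicate 1 or shEya3_KD2 replicate 2, at -0.27 to -0.17. Hmgcs1, which makes HMG-CoA (mm10, chromosome 13, 119690379 to 119708260), and Pmvk, phosphomevalonate kinase, passed the test against SCR with neither hairpin (Hmgcs1 0.15 ± 0.06 and -0.06, Pmvk -0.27 ± 0.13 and 0.12). Acat2 shares 1477 bases at 97.7% identity with Acat3, and Idi1 684 bases at 100% with the pseudogene Gm13502, so reads may be split between these copies.

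In the segment from squalene to cholesterol, 5 of 11 enzymes rose and 1 fell with shEya3_KD1, against 6 and none in shEya3_KD2. The shares that rose were 45.5% and 54.5%, where 24.1% and 23% of all genes tested did. The share that fell with shEya3_KD1 was 9.09%, where 26.2% of all genes did. Cyp51, lanosterol demethylase (mm10, chromosome 5, 4081145 to 4104746), was at 127, 111 and 118 CPM in SCR, 240, 247 and 241 in shEya3_KD1 and 153, 143 and 150 in shEya3_KD2. All shEya3_KD1 libraries lay far above the rest. The log2 fold changes were 1.03 ± 0.07 (2.05-fold, adjusted p = 4.86e-09) and 0.32 ± 0.07 (1.25-fold, adjusted p = 0.000963). Sqle, squalene epoxidase (mm10, chromosome 15, 59315077 to 59331192), was at 78.1, 75.0 and 74.0 CPM in SCR, 139, 131 and 126 in shEya3_KD1 and 129, 119 and 124 in shEya3_KD2. Here the hairpin groups overlapped each other and both stood apart from SCR, with log2 fold changes of 0.80 ± 0.06 (1.74-fold) and 0.71 ± 0.06 (1.64-fold), adjusted p of 5.99e-08 and 5.39e-07. Exons of Cyp51 overlap Akap9 on the other strand, and Akap9 also rose (0.79 ± 0.22 and 0.86 ± 0.22). As the strand setting of the counting is not given in the sources used here, reads of this pair cannot be told apart where they overlap.

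Fdft1, squalene synthase, stood at 69.0, 62.7 and 65.6 CPM in SCR, 88.6, 88.6 and 84.4 in shEya3_KD1 and 98.6, 92.5 and 93.6 in shEya3_KD2. It rose by 0.41 ± 0.06 and 0.53 ± 0.06 on the log2 scale, with no overlap between any 2 groups. Its exons overlap Ctsb on the other strand, which is more abundant and was at -0.03 and -0.25. Nsdhl, a sterol dehydrogenase of the demethylation steps, stood at 48.4, 42.7 and 48.6 CPM in SCR, 64.9, 61.2 and 53.7 in shEya3_KD1 and 67.8, 59.7 and 66.0 in shEya3_KD2. Both hairpin groups lay above SCR, by 0.37 ± 0.08 and 0.47 ± 0.08. Msmo1, the sterol methyl oxidase that acts beside it, rose by 0.46 ± 0.07 and 0.22 ± 0.07, and Ebp, a sterol isomerase, rose by 0.21 ± 0.07 with shEya3_KD2 and was at -0.01 with shEya3_KD1, a difference between hairpins of 0.22 ± 0.07. The shEya3_KD2 calls of Msmo1 and Ebp were each lost without SCR replicate 2, SCR replicate 3, shEya3_KD2 replicate 1 or shEya3_KD2 replicate 3, at values of 0.17 to 0.28 and 0.16 to 0.26 over all left-out libraries.

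Dhcr7 was the 1 enzyme of this segment that fell with shEya3_KD1. Dhcr7, which makes cholesterol from 7-dehydrocholesterol (mm10, chromosome 7, 143823145 to 143848410), stood at 176, 185 and 173 CPM in SCR, 107, 98.6 and 97.6 in shEya3_KD1 and 171, 162 and 161 in shEya3_KD2. The shEya3_KD1 libraries lay below all the others. Its log2 fold change was -0.82 ± 0.06 with shEya3_KD1 (adjusted p = 5.18e-08), -0.11 ± 0.06 with shEya3_KD2 (adjusted p = 0.177), and 0.71 ± 0.06 between hairpins (shEya3_KD2 minus shEya3_KD1, adjusted p = 3.33e-07). Lss, lanosterol synthase, and Sc5d, sterol desaturase, passed the test in no comparison, at 104 to 110 and 104 to 105 CPM as group means. Tm7sf2, a sterol reductase at 1.65 to 1.91 CPM, was called in none, and Hsd17b7, a sterol ketoreductase, was at 0.15 with shEya3_KD1 (adjusted p = 0.0510) and -0.03 with shEya3_KD2.

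**Figure D3:**
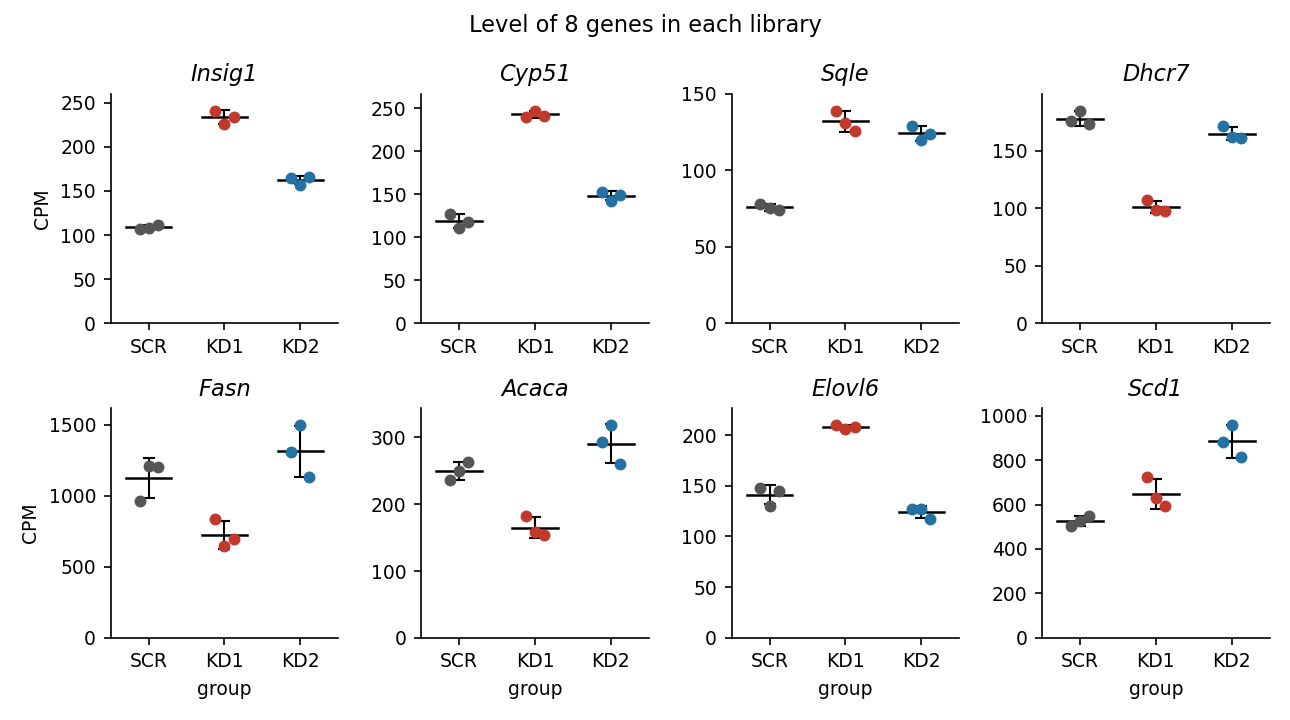
CPM in each library (points) with the group mean (line) and SD (bar, n = 3) for 8 members, with groups on the x axis (KD1 and KD2 for the hairpins) and each panel's own CPM axis from 0. Insig1 and Cyp51 are highest in shEya3_KD1, Dhcr7 is lowest there, and Fasn and Acaca are lower in shEya3_KD1 than in shEya3_KD2.

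Among the regulators, Insig1, which anchors Scap in the endoplasmic reticulum, changed most. Insig1 (mm10, chromosome 5, 28071363 to 28078662) stood at 107, 108 and 112 CPM in SCR, 241, 225 and 234 in shEya3_KD1 and 165, 157 and 166 in shEya3_KD2. The 3 groups stood fully apart, in the same order as for Cyp51 and Fdps. The log2 fold changes were 1.10 ± 0.06 (2.15-fold, adjusted p = 8.44e-10) and 0.58 ± 0.06 (1.49-fold, adjusted p = 2.57e-06). Its paralog Insig2 stood at 29.97, 27.6 and 29.9 CPM in SCR, 34.6, 35.3 and 35.4 in shEya3_KD1 and 31.99, 32.5 and 33.9 in shEya3_KD2. Insig2 rose by 0.27 ± 0.06 with shEya3_KD1 and by 0.17 ± 0.06 with shEya3_KD2, the latter with an adjusted p of 0.0439 that was lost in 13 of 17 other settings, among them those without any 1 SCR library, any 1 shEya3_KD2 library or shEya3_KD1 replicate 2 (0.13 to 0.19). Stard4, a carrier of cholesterol between membranes, stood at 73.8, 70.8 and 75.4 CPM in SCR, 107, 103 and 101 in shEya3_KD1 and 89.8, 83.2 and 87.8 in shEya3_KD2. Stard4 followed the order of Insig1, with log2 fold changes of 0.50 ± 0.06 and 0.25 ± 0.06.

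In shEya3_KD2, Srebf1 and Scap rose, while neither was called in shEya3_KD1. Srebf1 stood at 101, 112 and 113 CPM in SCR, 110, 90.4 and 93.6 in shEya3_KD1 and 151, 151 and 145 in shEya3_KD2. The shEya3_KD2 libraries stood above all others, with a log2 fold change of 0.45 ± 0.08 against SCR (1.37-fold, adjusted p = 0.000246), while shEya3_KD1 was at -0.15 ± 0.08 (adjusted p = 0.116). Between hairpins Srebf1 was 0.61 ± 0.08 higher in shEya3_KD2 (adjusted p = 1.29e-05). Rai1, which overlaps Srebf1 on the other strand, was at -0.42 ± 0.12 and 0.56 ± 0.12 against SCR. Scap was at 94.1, 103 and 99.2 CPM in SCR, 120, 107 and 100 in shEya3_KD1 and 127, 128 and 118 in shEya3_KD2, where it overlapped SCR with shEya3_KD1 (0.14, adjusted p = 0.132) and rose by 0.33 ± 0.07 with shEya3_KD2. Srebf2, which encodes the factor linked to sterol genes, did not pass the test with either hairpin (-0.03, and 0.17 ± 0.08 with adjusted p = 0.0756).

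The fatty acid enzymes changed in different directions from one another and between hairpins. Fasn, fatty acid synthase (mm10, chromosome 11, 120805846 to 120824547), stood at 966, 1209 and 1202 CPM in SCR, 835, 644 and 697 in shEya3_KD1 and 1306, 1498 and 1132 in shEya3_KD2. The shEya3_KD1 libraries lay below SCR, and the shEya3_KD2 libraries overlapped it. The log2 fold change was -0.63 ± 0.12 with shEya3_KD1 (adjusted p = 0.000857) and 0.22 ± 0.12 with shEya3_KD2 (adjusted p = 0.166, called without shEya3_KD2 replicate 3). Acaca, the acetyl-CoA carboxylase that makes malonyl-CoA (mm10, chromosome 11, 84129672 to 84401651), stood at 236, 250 and 263 CPM in SCR, 182, 159 and 154 in shEya3_KD1 and 294, 319 and 261 in shEya3_KD2. Again shEya3_KD1 lay below and shEya3_KD2 overlapped SCR, with log2 fold changes of -0.60 ± 0.09 (adjusted p = 2.97e-05) and 0.22 ± 0.08 (adjusted p = 0.0462). That shEya3_KD2 call was lost with RLE size factors, library totals, the 5 CPM filter, DESeq2 and the replicate number as a block. It was also lost without any 1 SCR library, shEya3_KD1 replicate 2 or 3, or shEya3_KD2 replicate 1 or 2, at 0.15 to 0.29 over all left-out libraries. The pseudogene Gm5182 matches 6118 bases of Acaca at 99.2% identity, so their reads may be split, and Gm5182 was at -0.75 ± 0.09 and 0.14 ± 0.09.

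Elovl6, which lengthens palmitate (mm10, chromosome 3, 129532355 to 129638495), went opposite to Fasn and Acaca. It stood at 148, 130 and 145 CPM in SCR, 210, 206 and 208 in shEya3_KD1 and 128, 127 and 117 in shEya3_KD2. The shEya3_KD1 libraries were above and the shEya3_KD2 libraries below every SCR library. The log2 fold change was 0.56 ± 0.07 with shEya3_KD1 (1.47-fold, adjusted p = 4.8e-06) and -0.19 ± 0.07 with shEya3_KD2 (adjusted p = 0.0326). The call for shEya3_KD2 was lost with no filter, with only the groups compared, and without SCR replicate 1, SCR replicate 3, shEya3_KD2 replicate 1 or shEya3_KD2 replicate 3.

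The stearoyl-CoA desaturases, which put a double bond into saturated fatty acids, were highest in shEya3_KD2. Scd1 (mm10, chromosome 19, 44394455 to 44407879) stood at 504, 526 and 546 CPM in SCR, 724, 631 and 592 in shEya3_KD1 and 883, 957 and 812 in shEya3_KD2. Its groups stood apart in that order, with log2 fold changes of 0.30 ± 0.08 (adjusted p = 0.00701) and 0.75 ± 0.08 (1.68-fold, adjusted p = 5.74e-06). Scd2 (mm10, chromosome 19, 44293674 to 44306864) stood at 2330, 2510 and 2565 CPM in SCR, 2481, 2072 and 2017 in shEya3_KD1 and 3453, 3774 and 3173 in shEya3_KD2. Scd2 rose with shEya3_KD2 by 0.49 ± 0.09 (1.40-fold, adjusted p = 0.00044), while shEya3_KD1 overlapped SCR at -0.17 ± 0.09 (adjusted p = 0.124, called without shEya3_KD1 replicate 1). The Scd genes share stretches of 623 bases at 95.5% identity (Scd2 with Scd1) and 1053 bases at 91.4% (Scd1 with Scd3), so some reads may be split. Acly, ATP citrate lyase, which supplies cytosolic acetyl-CoA to both branches, stood at 299, 289 and 308 CPM in SCR, 340, 302 and 276 in shEya3_KD1 and 366, 372 and 331 in shEya3_KD2. Acly rose by 0.25 ± 0.08 with shEya3_KD2 (adjusted p = 0.0166, lost without SCR replicate 2 or shEya3_KD2 replicate 1) and was at 0.03 with shEya3_KD1.

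The hairpins were also compared directly, a comparison that uses no SCR library. In shEya3_KD2 against shEya3_KD1, 11 members were higher and 9 lower, where 27% and 22.5% of all genes tested were (49.6% in either direction). The branches parted: 5 of 6 fatty acid enzymes were higher in shEya3_KD2 and 1, Elovl6, was lower, with a median of 0.55, while 3 of 18 sterol enzymes were higher and 6 lower, with a median of -0.05. The median over all genes was 0.0030. Fasn differed by 0.85 ± 0.12 (1.81-fold, adjusted p = 9.46e-05), Acaca by 0.82 ± 0.09 (adjusted p = 1.51e-06) and Scd2 by 0.66 ± 0.09 (adjusted p = 2.28e-05). Among sterol enzymes Cyp51 was at -0.71 ± 0.07 and Fdps at -0.59 ± 0.07, and Insig1 was at -0.52 ± 0.06. Hmgcs1 was -0.22 ± 0.06, Hsd17b7 -0.18 ± 0.06, Mvd -0.23 ± 0.07 and Msmo1 -0.25 ± 0.07. The sterol enzymes that were higher in shEya3_KD2 were Dhcr7, Ebp and Pmvk (0.38 ± 0.13). Of the regulators and transport genes, Srebf1 was higher and Insig1 and Stard4 were lower in shEya3_KD2, calls that held in every setting. Srebf2 (0.21 ± 0.08) and Scap (0.19 ± 0.07) were also called higher, but their groups overlapped. With the sign kept, the calls were lost in 6 and 10 of 17 other settings. Both were lost without shEya3_KD1 replicate 2 or 3 or shEya3_KD2 replicate 1 or 2, and that of Scap also without SCR replicate 3, at 0.16 to 0.29 for Srebf2 and 0.14 to 0.27 for Scap over all left-out libraries. Beyond these settings, both turned negative with length and GC trends removed, Srebf2 not called (adjusted p = 0.0738) and Scap called lower (adjusted p = 0.0455).

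Averaged over genes within each library, the sterol enzymes stood 0.189 to 0.216 above the SCR mean in shEya3_KD1 and 0.121 to 0.179 above it in shEya3_KD2, on the log2 CPM scale. The fatty acid enzymes stood at 0.059, -0.145 and -0.176 in shEya3_KD1 and at 0.307, 0.404 and 0.159 in shEya3_KD2. Fatty acid minus sterol level was -0.156, -0.344 and -0.364 in shEya3_KD1 and 0.128, 0.283 and -0.0059 in shEya3_KD2, against -0.092 to 0.059 in SCR. All shEya3_KD1 libraries lay below SCR on this difference, and shEya3_KD2 replicate 3 lay within the SCR range. Single libraries in all groups also carried trends with transcript length, given below, and the part of these in the averages was not tested. Regulators and transport genes stood 0.252 to 0.392 above the SCR mean in shEya3_KD1 and 0.308 to 0.343 above it in shEya3_KD2.

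**Figure D4:**
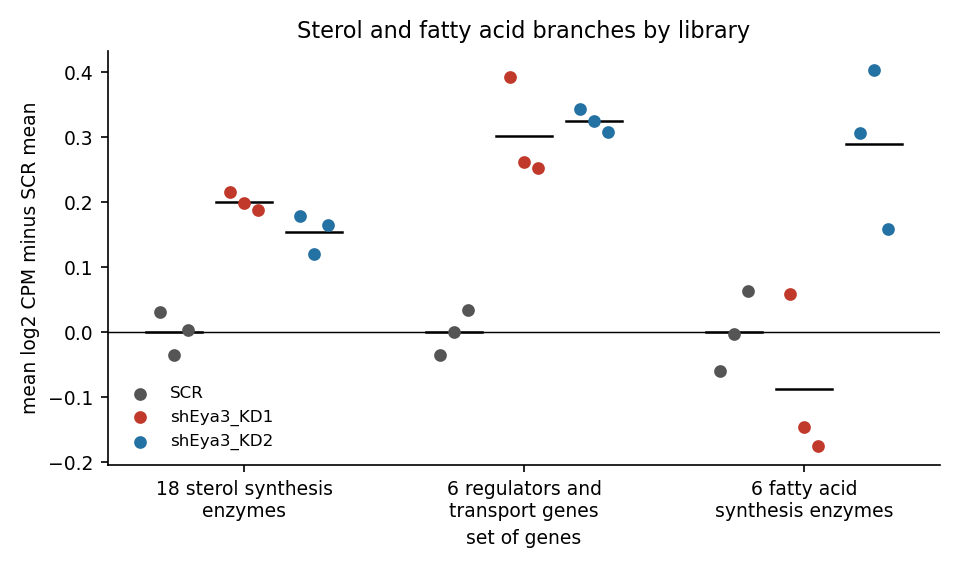
Mean log2 CPM of the sterol enzymes, the regulators and transport genes, and the fatty acid enzymes in each library, minus the mean of the SCR libraries, with points for libraries and lines for group means. Sterol enzymes are above SCR in all 6 hairpin libraries, while fatty acid enzymes range from -0.176 to 0.059 in shEya3_KD1 and from 0.159 to 0.404 in shEya3_KD2.

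Transcript length moved with the fatty acid result. Over 9466 genes with a mean log2 CPM above 3, the Spearman correlation of the shEya3_KD2 log2 fold change with transcript length was 0.323, and for shEya3_KD1 it was 0.015. With genes in 5 equal length bins from short to long, the median shEya3_KD2 fold change was -0.111, -0.027, 0.039, 0.1003 and 0.221. The fatty acid enzymes had a median transcript length of 5703 bases (10050 for Fasn and 9513 for Acaca), the sterol enzymes 2998 and all these genes 3456. By library, the Spearman correlation of the deviation from the group mean with length was 0.486, -0.344 and -0.285 in shEya3_KD1 replicates 1, 2 and 3. In shEya3_KD2 it was -0.208, 0.611 and -0.570, and in SCR -0.471, 0.298 and 0.330. In each group the library with the highest correlation also had the highest fatty acid average. The part of these trends in the fatty acid result was not tested beyond the following step. With length and GC trends removed from each library, the shEya3_KD2 values became -0.15 for Fasn (adjusted p = 0.0332), -0.06 for Acaca (adjusted p = 0.363) and 0.11 for Acly (adjusted p = 0.0927). The desaturases stayed past the threshold, Scd1 at 0.64 and Scd2 at 0.32, as did Srebf1 at 0.27 and Scap at 0.14, and Elovl6 was at -0.31. The shEya3_KD1 values of Fasn and Acaca were -0.60 and -0.63, and Scap passed the threshold there at 0.25 (adjusted p = 0.000149), as did Scd2 at -0.16. Between hairpins Fasn was at 0.45, Acaca at 0.57 and Scd2 at 0.49, Acly lost its call at 0.03, and Scap and Srebf2 turned to -0.11 and -0.10 from 0.19 ± 0.07 and 0.21 ± 0.08. Over all genes the direct comparison of hairpins then had 3606 higher and 4865 lower, against 4301 and 3588 without this step.

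**Figure D5:**
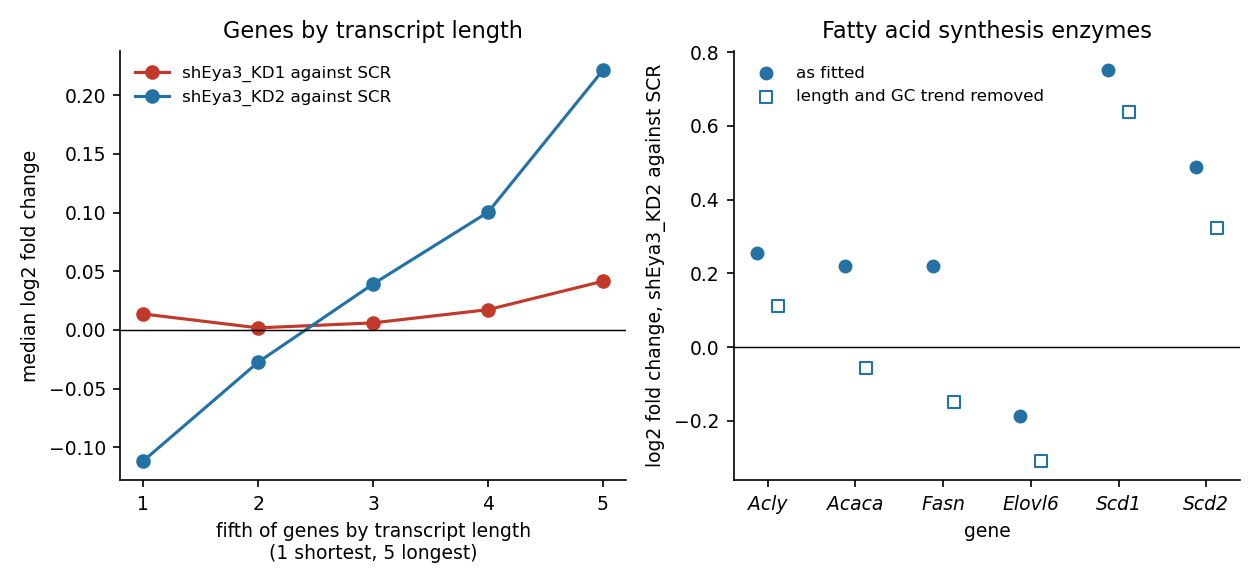
Left, median log2 fold change against SCR of genes in 5 bins of transcript length (1 shortest, 5 longest) for each hairpin; right, log2 fold change of the 6 fatty acid enzymes in shEya3_KD2 against SCR as fitted (filled) and with length and GC trends removed (open). The shEya3_KD2 medians run from -0.111 to 0.221, and the open symbols of Acaca and Fasn lie below 0.

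Genes next to these pathways were taken from 7 further lists, with 63 of 73 genes tested. Counts for every list stand beside the shares of all genes tested. These were 24.1% that rose and 26.2% that fell with shEya3_KD1, and 23% and 22.3% with shEya3_KD2. In the list of other sterol synthesis and uptake genes, 2 of 6 fell in shEya3_KD1, none rose, and shEya3_KD2 had 3 in each direction. Scarb1, a lipoprotein receptor, was at -0.35 ± 0.07 and -0.24 ± 0.07, and Ldlrad3, a relative of lipoprotein receptors, at 0.09 and 0.54 ± 0.07. For sterol efflux and the LXR receptors, 3 rose and 1 fell of 5 with shEya3_KD1 and 1 rose with shEya3_KD2. Nr1h2, an LXR receptor gene, was at 0.24 ± 0.07 and 0.51 ± 0.07, and Mylip, a ligase that degrades lipoprotein receptors, at 0.48 ± 0.12 and 0.18 ± 0.12, the latter not called. Apoe, a lipoprotein component, was at 7.70 ± 1.80 CPM in SCR and changed by 0.46 ± 0.16 with shEya3_KD1 and -0.09 (not called) with shEya3_KD2.

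In the trafficking and storage list, 3 of 10 rose and 1 fell with shEya3_KD1, against 5 and 1 in shEya3_KD2. Soat1, which esterifies cholesterol for storage, rose by 0.45 ± 0.06 with shEya3_KD1, and Npc2, a lysosomal cholesterol carrier, fell by 0.42 on the log2 scale. With shEya3_KD2, Osbp, an oxysterol-binding lipid carrier, rose by 0.43 ± 0.07. Gramd1c, a sterol transporter at membrane contacts, went from 3.33 ± 0.497 to 1.54 ± 0.251 CPM in shEya3_KD2. For SREBP processing and Insig turnover (9 genes), shEya3_KD1 had 2 that rose and 2 that fell, and shEya3_KD2 had 3 and 2. The shEya3_KD1 shares, 22.2% in each direction, were near those of all genes tested. Rnf145, a sterol-responsive ubiquitin ligase, was at -0.36 ± 0.08 and 0.31 ± 0.08, Mbtps1, the first SREBP protease, at 0.31 ± 0.07 and 0.16 ± 0.07 (not called), and Vcp, which extracts proteins for degradation, at -0.16 (not called) and 0.24 ± 0.08. In the isoprenoid list, 3 of 9 rose with shEya3_KD1 and 2 with shEya3_KD2, and none fell. The share that rose with shEya3_KD2, 22.2%, was near the 23% of all genes tested. Pdss2 and Coq2, of ubiquinone synthesis, rose by 0.75 ± 0.07 and 0.47 ± 0.07 with shEya3_KD1, and Pdss2 and Pggt1b, a prenyltransferase subunit, by 0.22 ± 0.07 and 0.45 ± 0.09 with shEya3_KD2.

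In glycerolipid synthesis, which builds storage fat and membrane lipids, 5 of 8 genes fell with shEya3_KD1 and none rose. That was 62.5%, where 26.2% of all genes tested fell. With shEya3_KD2, 2 fell (25%, against 22.3% of all genes) and 3 rose (37.5%, against 23%). Dgat2, which makes triglyceride, stood at 30.9, 31.4 and 32.6 CPM in SCR, 15.6, 15.7 and 13.4 in shEya3_KD1 and 14.98, 13.9 and 13.8 in shEya3_KD2. All hairpin libraries lay below all SCR libraries, with log2 fold changes of -1.09 ± 0.08 (adjusted p = 2.04e-08) and -1.15 ± 0.08 (adjusted p = 3.32e-08). Agpat3, an acyltransferase of phospholipid synthesis, was at -0.87 ± 0.08 and -0.35 ± 0.08. In the list of other fatty acid synthesis and activation genes, 7 of 16 rose and 2 fell in shEya3_KD1, against 8 and 3 in shEya3_KD2. Fads1, a desaturase of polyunsaturated fatty acids, rose by 0.25 ± 0.07 and 0.54 ± 0.07, and Tecr, a reductase of chain elongation, by 0.36 ± 0.06 and 0.43 ± 0.06. Acacb, the mitochondrial acetyl-CoA carboxylase, was at 0.19 ± 0.06 and -0.60 ± 0.07, while Acsl5, which activates fatty acids, fell by 0.38 with shEya3_KD1 on the log2 scale.

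All 18 member calls of shEya3_KD1 against SCR held in each of 17 other settings in which the gene could be fitted. Of 21 calls for shEya3_KD2 against SCR, 14 held in every setting; the others were Idi1, Msmo1, Ebp, Insig2, Acly, Acaca and Elovl6. Of 20 between hairpins 12 held, and the others were Pmvk, Mvd, Msmo1, Hsd17b7, Ebp, Srebf2, Scap and Acly. In bulk RNA a change in all cells and a change in part of them cannot be told apart.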

How the data were processed

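Counts of mRNA from 9 libraries were analysed, with groups and replicate numbers taken from the sample titles. The labels' protocols name a NuGEN Universal Plus kit for mRNA. The submitters' processing notes list STAR, FastQC, MultiQC and mm10 with no version. How reads were counted, with which annotation and strand setting, is not given in the sources used here. Raw read counts per gene symbol were deposited by the authors and used here without change. Coordinates and transcript lengths came from GENCODE M21 on mm10, and promoters from RefSeq on GRCm38.p6. Genes were kept by edgeR 4.0.16 (R 4.3.3) filterByExpr, libraries were scaled by TMM, and a robust quasi-likelihood model of group was fitted to all 9 libraries, with Benjamini-Hochberg adjustment over all 15914 genes and a threshold of 0.05. CPM values use the TMM-scaled totals. SEs were derived from the fold change and its F statistic. The script was tested on simulated data. An exact permutation test of 3 libraries against 3 gives at least 0.1, which is why the model across genes was used.

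All 30 members are named. Values in every library were to be given for the fatty acid enzymes, the 4 called sterol enzymes and up to 3 regulators with the largest change per hairpin, and up to 2 called genes of 1 CPM or more were taken per further list and hairpin, of which the text describes a part. The members and lists were chosen with earlier results of these data known. Alternatives were RLE size factors, library totals, DESeq2 1.42.0, 5 CPM in 3 libraries as the low filter or none, a fit of only the groups compared, a replicate block and each library left out. Removal of length and GC trends (splines with 4 degrees of freedom) was chosen after seeing the data. Hairpin sequences were not analysed here.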

Additional observations from a re-analysis of the deposited data

Results flagged for a closer look

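Acaca and Elovl6 were called in opposite directions by the hairpins, and each difference between hairpins passed the quasi-likelihood test of edgeR (Benjamini-Hochberg adjusted). For Acaca the log2 fold change was -0.60 ± 0.09 with shEya3_KD1 and 0.22 ± 0.08 with shEya3_KD2, a difference of 0.818768 (adjusted p = 1.51e-06). For Elovl6 it was 0.56 ± 0.07 and -0.19 ± 0.07, a difference of -0.744188 (adjusted p = 2.99e-07). The shEya3_KD2 call of Acaca (adjusted p = 0.0462) was lost, with its sign kept, in 12 of 17 other settings, among them the replicate block, DESeq2 and RLE size factors. That of Elovl6 (adjusted p = 0.0326) was lost in 6, while both differences between hairpins held in all 17. With length and GC trends removed the differences were 0.57 and -0.86. The shEya3_KD2 value of Acaca was then -0.06, on the same side as shEya3_KD1 and not called (adjusted p = 0.363), a loss beyond those 12.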

How the results depend on the processing

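Of 90 member values, 59 were called, of which 15 lost their call when some library was left out; 5 others gained one. Deviations from the group mean were weakly correlated between same-numbered libraries of different groups (9 correlations, -0.108 to 0.196). Between libraries with different numbers the correlations ran from -0.239 to 0.170. These values cannot show whether the replicate numbers pair the samples. With the replicate block 1 call was lost (Acaca, shEya3_KD2 against SCR) and 1 gained (Hmgcs1, shEya3_KD1 against SCR, 9 sterol enzymes that rose), and fatty acid enzymes that rose with shEya3_KD2 numbered 3. Pmvk and Tm7sf2, under 5 CPM, have no value under the 5 CPM filter.

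With length and GC trends removed, these values took the other sign: Lss -0.13, Acaca -0.057, Fasn -0.15 and Soat1 -0.14 with shEya3_KD2 against SCR, and Srebf2 -0.10, Scap -0.11 and Gpam -0.15 between hairpins. The same setting gave 2 fatty acid enzymes that rose and 2 that fell with shEya3_KD2, 4 sterol enzymes that fell with it, and 1 regulator higher in shEya3_KD2 than in shEya3_KD1. Sterol medians went from 0.18 to 0.24 with shEya3_KD1 and from -0.05 to -0.16 between hairpins. Fatty acid medians went from 0.24 to 0.028 with shEya3_KD2 and from 0.55 to 0.38 between hairpins. The 5 CPM filter gave a sterol median of 0.26 with shEya3_KD1 and 1 regulator higher between hairpins. Only the groups compared gave 1 sterol enzyme and 1 regulator higher between hairpins and 0 fatty acid enzymes that fell with shEya3_KD2, as did no filter (0). The cause was not tested.

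With each library left out, sterol enzymes higher in shEya3_KD2 than shEya3_KD1 numbered 1 to 3 (1 without shEya3_KD1 replicate 1), and regulators 1 to 3. With shEya3_KD2 against SCR, fatty acid enzymes that rose numbered 2 to 5 (2 without SCR replicate 2 or shEya3_KD2 replicate 1) and that fell 0 to 1, and sterol enzymes that fell 1 to 2. With shEya3_KD1, regulators that fell numbered 0 to 1 (1, Srebf1, without shEya3_KD1 replicate 1), and the sterol median was 0.16 to 0.22.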

Other observations

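Lrp1, a large lipoprotein receptor, varied widely within its groups, at 848, 1483 and 623 CPM in the shEya3_KD2 libraries and 341, 556 and 513 CPM in SCR (log2 fold change 1.07 ± 0.33, and 0.58 with length and GC trends removed). Its longest transcript has 14888 bases. Within shEya3_KD2, the Spearman correlation of a library's deviation from the group mean with transcript length was 0.611 in replicate 2 and -0.570 in replicate 3, over 9466 genes. Plin2, which coats lipid droplets and was singled out after its values were seen, went from 106 ± 6.50 CPM in SCR to 70.1 ± 5.86 in shEya3_KD1 and 130 ± 9.19 in shEya3_KD2, the same order of groups as Fasn and Acaca.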
